A study of Mus musculus with 24 samples.

Results

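The genes described here encode synaptic vesicle proteins and the machinery that releases transmitter from nerve terminals. They were taken by symbol from a list of 37 genes, and each symbol matched 1 of the 46983 gene identifiers counted. All 37 were among the 14599 genes with enough counts to be tested. They comprise 5 synaptotagmins of the calcium-binding kind (Syt1, Syt2, Syt3, Syt5, Syt7), 6 other synaptotagmins (Syt4, Syt11, Syt12, Syt13, Syt16, Syt17), 4 SNARE proteins (Snap25, Stx1a, Vamp1, Vamp2), 3 complexins (Cplx1 to Cplx3) and 3 SV2 proteins (Sv2a to Sv2c). The rest are 3 synapsins (Syn1 to Syn3), 4 physins and gyrins (Syp, Synpr, Syngr1, Syngr3), 7 genes of Rab3 and the active zone (Rab3a, Rab3c, Rims1, Rims2, Bsn, Pclo, Unc13a) and 2 vesicular glutamate transporters (Slc17a7, Slc17a6).

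The tissue was parietal cortex of C57Black/6 mice, and the labels name no transgene, mutation or drug treatment beyond the anaesthetic. The middle cerebral artery was permanently occluded (MCAO) by coagulating and cutting it under isoflurane, which served as a model of ischemic stroke that leaves a small lesion in that cortex, and tissue was taken 3 days later. The 4 groups of 6 biological replicates each were MCAO at 18 months of age, intact controls at 18 months, MCAO at 3 months and intact controls at 3 months, with 1 library per replicate. The controls were not operated on, so the occlusion and the surgery with its anaesthesia cannot be told apart.

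Synaptic vesicles carry transmitter to the active zone, a protein scaffold opposite the receiving cell, where Rim and Munc13 proteins dock and prime them. Fusion is driven by a SNARE complex of a vesicle protein (synaptobrevin, also called VAMP) with syntaxin and SNAP-25 of the plasma membrane. Complexins clamp and activate that complex, and synaptotagmins sense the calcium that triggers fusion. The messenger RNA of these genes lies mainly in the cell bodies of neurons, so a cortical sample reads the neurons whose cell bodies it holds and not the terminals that reach it from elsewhere.

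Libraries were made from messenger RNA 3′ ends, and held 3299128 to 13082872 reads counted in genes. Levels are given in CPM, read counts relative to library size after scaling by the trimmed mean of M values, and a called change has an adjusted p under 0.05 in edgeR's quasi-likelihood test over all 14599 genes. No member lay at 0 in any library, and the lowest, Syn3, had 10 to 46 counts per library. None of 16 neuronal and 6 excitatory cortical markers was at 0 in any group. The excitatory cortical markers summed to 3515 to 6446 CPM after MCAO and 6535 to 11050 CPM in controls at 18 months, and to 5427 to 8612 CPM after MCAO and 8889 to 12250 CPM in controls at 3 months. Markers of neighbouring striatum and thalamus were not at 0 either, the 6 striatal ones summing to between 146 and 780 CPM over all libraries. In bulk tissue, fewer cells of a type and less RNA per cell cannot be told apart. Of the 16 neuronal markers 12 fell after MCAO at 18 months (median log2 change -0.54) and 11 at 3 months (median -0.41). Their summed level was 6275 to 7666 CPM after MCAO and 8648 to 10440 CPM in controls at 18 months, and 7441 to 8244 CPM after MCAO and 9718 to 10770 CPM in controls at 3 months. All 8 microglial markers rose at both ages, summing to 1946 to 2421 CPM after MCAO and 380 to 662 CPM in controls at 18 months, and to 1118 to 3559 CPM after MCAO and 366 to 434 CPM in controls at 3 months. All 6 monocyte and macrophage markers also rose at both ages, to a sum of 405 to 814 CPM after MCAO and 15.0 to 46.1 CPM in controls at 18 months, and 75.6 to 589 CPM after MCAO and 4.43 to 8.67 CPM in controls at 3 months. The part these cells take in the results below was not tested. The later scaling to neuronal markers uses no gene of these cells, and it cannot tell fewer neurons from less RNA per neuron.

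Some libraries stood apart. At 3 months MCAO libraries A and C had the highest microglial sums of that group (3559 and 2692 CPM, the other 4 at most 1395 CPM). They also had its highest excitatory sums (8248 and 8612 CPM, the other 4 at most 6923 CPM). Their monocyte and macrophage sums were highest too (589 and 372 CPM), and their inhibitory sums lowest (385 and 373 CPM). Library A was the deepest, with 13082872 reads counted in genes, and the others of that group had at most 5242521. Choroid plexus markers summed to 1451 CPM in library C of that group and to 804 CPM in library D of the 3-month controls, against at most 49.9 CPM elsewhere. Library D of MCAO at 18 months had the lowest excitatory sum of all libraries (3515 CPM) and the highest sum of oligodendrocyte markers (3971 CPM). Its share of reads outside genes, 34.5%, was the largest, in a range from 25.7%, but library D of MCAO at 3 months came close with 33.7%. In each of the 4 groups libraries D to F had larger shares than A to C, and the cause of this was not tested. In the 18-month controls library A had the lowest neuronal and excitatory sums (8648 and 6535 CPM), and it was lowest of its group for 13 members and highest for 13. After MCAO at 18 months, erythrocyte markers summed to 1278 CPM in library F and 394 CPM in C, and to at most 111 CPM in any other library.

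At 18 months 31 of 37 members fell after MCAO, 1 rose and 5 were not called, where 21.5% of all tested genes fell and 23.7% rose. At 3 months 25 members fell, 1 rose and 11 were not called, where 17.3% of all tested genes fell and 20.1% rose. Among genes averaging at least 5 CPM, 25.0% fell at 18 months and 20.3% at 3 months, against 31 and 25 of the 36 members above that level. The median log2 change of the members was -0.67 at 18 months and -0.39 at 3 months, beside -0.03 and -0.04 over all tested genes. All 6 MCAO libraries lay below all 6 controls for 22 members at 18 months, where 11.0% of tested genes did so. At 3 months this held for 15 members, where 7.77% of tested genes did so. The summed level of the 37 genes was 8421 to 12330 CPM after MCAO and 16170 to 18190 CPM in controls at 18 months, and 12110 to 13430 CPM after MCAO and 17280 to 18660 CPM in controls at 3 months.

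At both ages 23 members fell. The share of all tested genes that fell at both ages is not given here, so this count cannot be set against it. Syngr1 rose at both ages, and Syt17, Cplx3 and Syn3 were called at neither. Syt2, Syt3, Syt12, Sv2b, Sv2c, Synpr, Rims2 and Slc17a7 fell at 18 months and were not called at 3 months, while Syt11 and Rab3c fell at 3 months and were not called at 18 months. With libraries scaled by spiked-in RNA these lists emptied: the 8 genes were called at 3 months as well, and Syt11 and Rab3c at 18 months. That scaling also called more of all tested genes lower at both ages, as counted below. These lists are no test of a difference between the ages, which is given further on. Without MCAO libraries A and C of the 3-month group the count of members that fell at that age was 24, and leaving out any 1 of the 24 libraries gave 29 to 32 falls at 18 months and 21 to 26 at 3 months. Scaling by total gene counts gave 27 falls at 18 months and 14 at 3 months, and scaling by spiked-in RNA gave 33 at each age. Of all 14599 tested genes, 2134 fell at 18 months and 1203 at 3 months under total-count scaling. Under spiked-in RNA 4119 and 6178 did so, beside 3143 and 2521 with the main scaling. Total-count scaling lost the 3-month calls on Syt5, Syt11, Stx1a, Cplx1, Sv2a, Syn2, Syngr3, Rab3c, Rims1, Bsn and Slc17a6 (adjusted p = 0.053 to 0.292). At 18 months it lost those on Syt7, Syt12, Syn2 and Synpr (adjusted p = 0.0575 to 0.129).

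**Figure D1:**
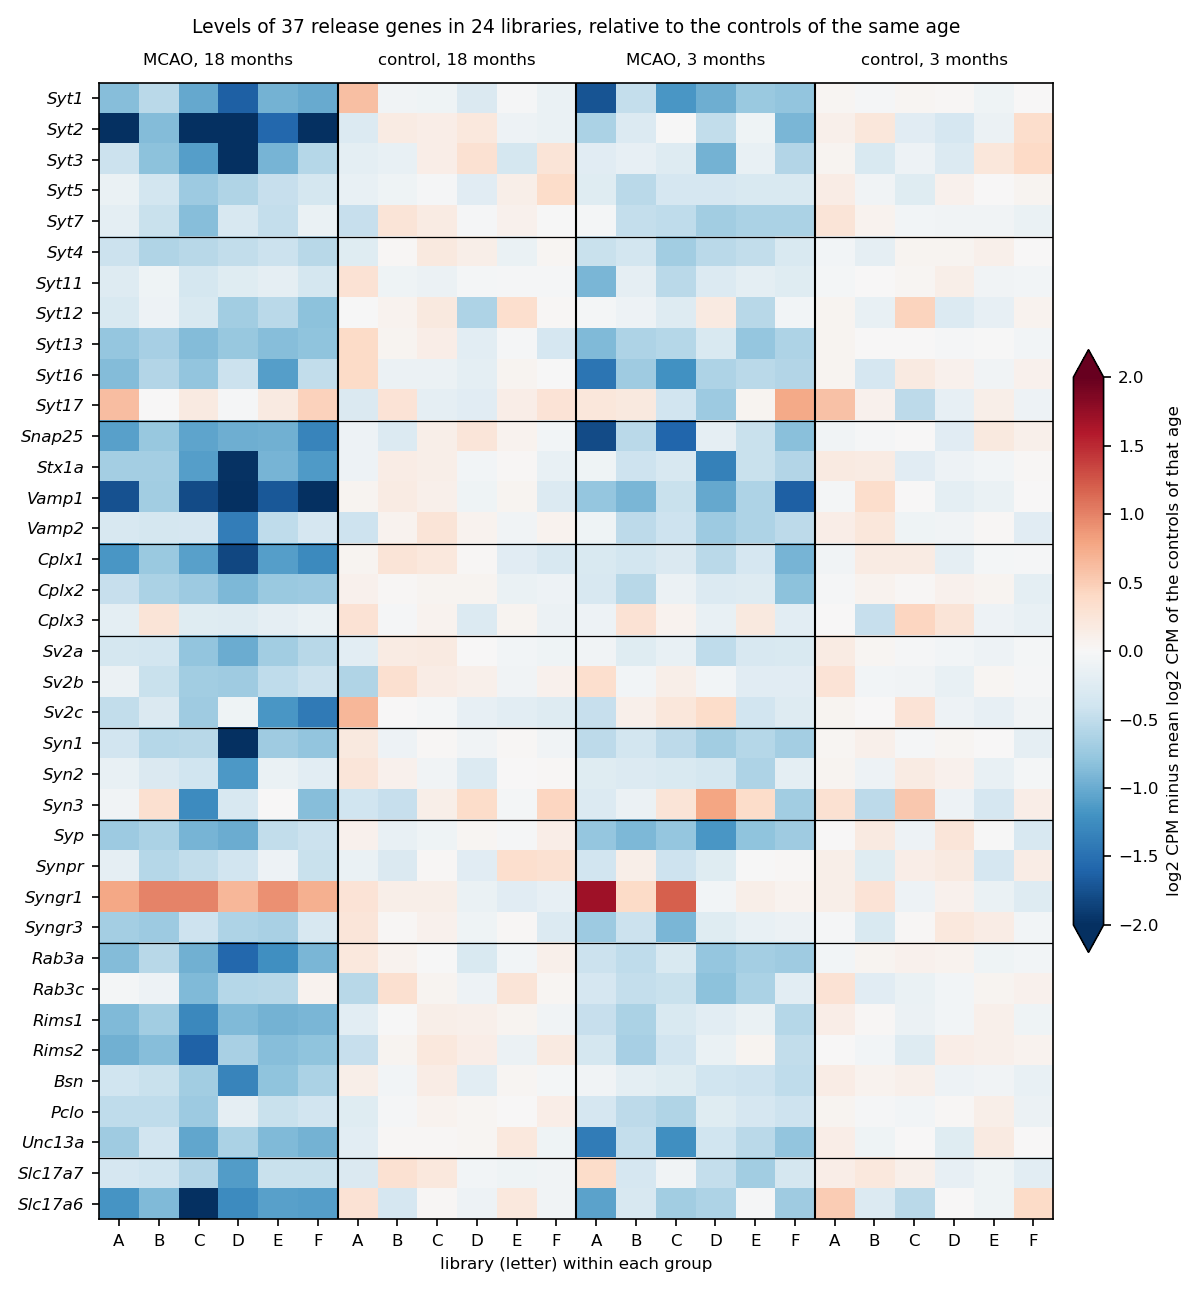
Each row is a gene and each column a library; colour gives log2 CPM minus the mean log2 CPM of the controls of the same age, blue lower and red higher, with values past 2 shown in the end colours. The MCAO columns are mostly blue, the row of Syngr1 is red in all 6 MCAO libraries at 18 months and in A and C at 3 months, and library D at 18 months holds the lowest values of Syn1 and Vamp2.

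**Figure D2:**
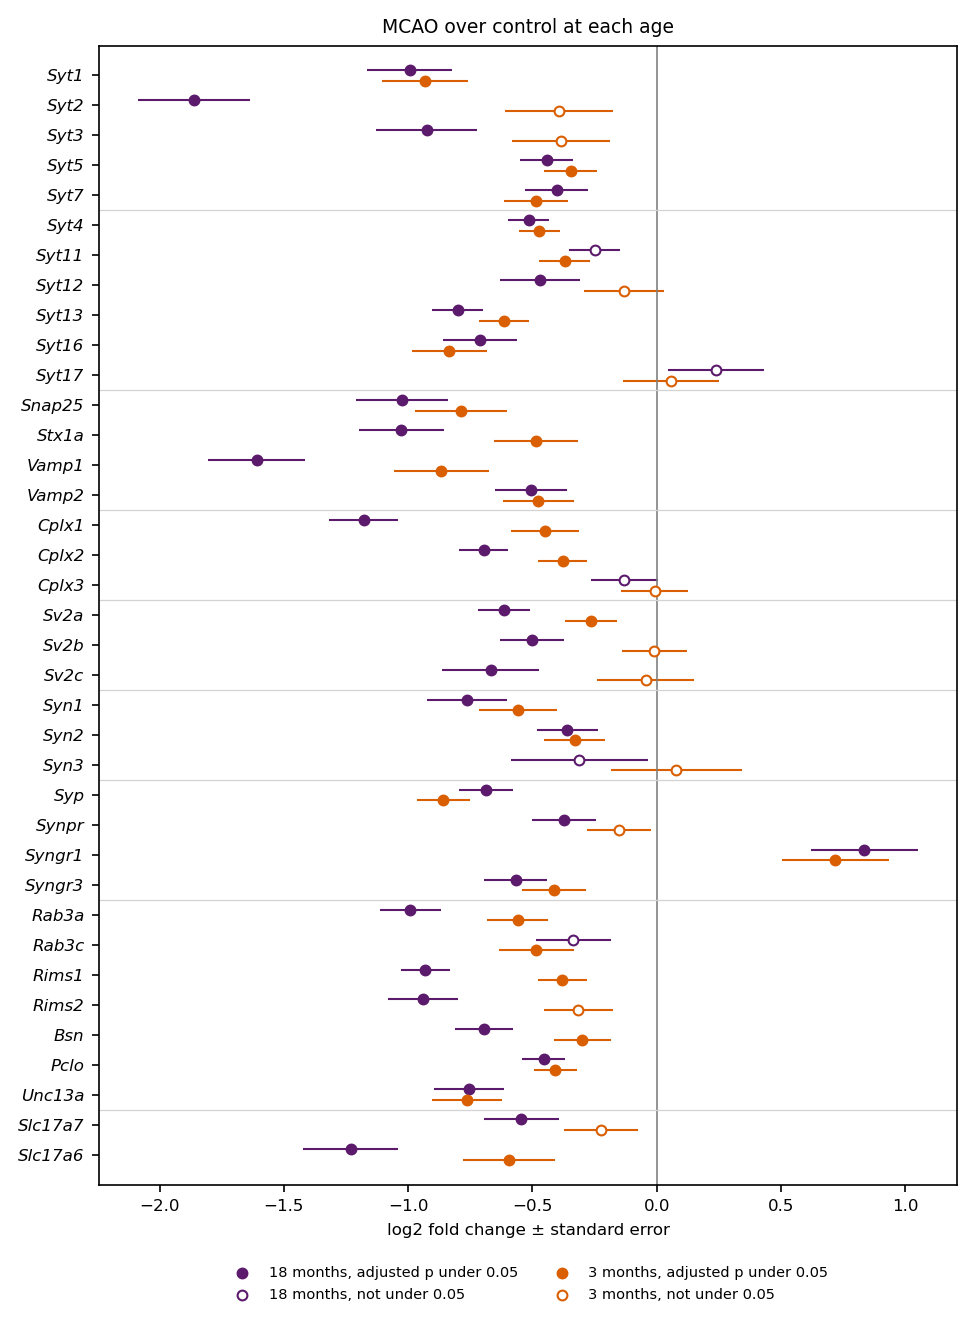
The log2 fold change of MCAO over control is plotted for each gene with its standard error, at 18 months (purple, upper) and 3 months (orange, lower); filled points have an adjusted p under 0.05. Syt2 at -1.86 and Vamp1 at -1.61 at 18 months lie farthest to the left, and Syngr1 is the only gene with filled points right of 0.

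Promoter windows, from 250 bases before to 50 after the transcript start, were matched in RefSeq (GRCm38.p6) for 26 of the 37 members. Those of 4 are shown because the results turn on these genes: Syn1 and Unc13a fell at both ages and hold part of an element known from neuronal genes, Vamp1 had one of the largest falls, and Syngr1 was the gene that rose. They lie at chrX:20920869-20921168 (Syn1, minus strand), chr8:71671708-71672007 (Unc13a, minus strand), chr6:125215331-125215630 (Vamp1, plus strand) and chr15:80091084-80091383 (Syngr1, plus strand). Capitals mark matches, on either strand, to the cyclic AMP response element TGACGTCA, the left part TTCAGCACC of the element bound by the repressor REST, the NRF1 core GCGCATGCG, the GC box GGGCGG and the E-box CACGTG; no matches overlapped in these 4 windows.
Syn1: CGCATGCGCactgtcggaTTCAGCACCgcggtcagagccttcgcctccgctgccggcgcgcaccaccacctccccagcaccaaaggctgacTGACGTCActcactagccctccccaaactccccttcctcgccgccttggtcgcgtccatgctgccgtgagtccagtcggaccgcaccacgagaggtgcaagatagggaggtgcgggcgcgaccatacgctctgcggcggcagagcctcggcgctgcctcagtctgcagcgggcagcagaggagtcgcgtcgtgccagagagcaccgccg
Unc13a: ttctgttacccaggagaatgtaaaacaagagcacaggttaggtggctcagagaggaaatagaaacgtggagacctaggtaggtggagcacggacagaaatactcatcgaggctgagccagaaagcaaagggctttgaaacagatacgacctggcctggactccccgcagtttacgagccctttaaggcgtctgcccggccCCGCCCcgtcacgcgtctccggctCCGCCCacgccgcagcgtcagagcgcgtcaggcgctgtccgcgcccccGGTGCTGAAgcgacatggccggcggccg
Vamp1: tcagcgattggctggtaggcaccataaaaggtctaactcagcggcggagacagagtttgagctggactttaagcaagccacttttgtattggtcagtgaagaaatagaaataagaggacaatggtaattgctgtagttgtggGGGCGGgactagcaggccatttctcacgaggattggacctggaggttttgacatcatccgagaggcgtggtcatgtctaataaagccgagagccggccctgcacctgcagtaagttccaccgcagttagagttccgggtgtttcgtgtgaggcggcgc
Syngr1: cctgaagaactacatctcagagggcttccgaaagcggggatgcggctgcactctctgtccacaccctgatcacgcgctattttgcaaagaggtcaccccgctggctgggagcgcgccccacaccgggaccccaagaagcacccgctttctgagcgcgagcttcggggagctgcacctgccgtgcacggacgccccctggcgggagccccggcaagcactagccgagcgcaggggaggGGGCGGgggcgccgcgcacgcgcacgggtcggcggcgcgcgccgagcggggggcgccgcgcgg
The left REST part was in 0.371% of all 32851 promoter windows and in those of 2 members, Syn1 and Unc13a. The cyclic AMP response element was in 1.79% of all windows and, among members, in Syn1, and the NRF1 core in 1.75% of all windows and in Syn1 and Bsn. The GC box was in 35.7% of all windows and in 22 of the 35 windows of members, Vamp1, Unc13a and Syngr1 included. The E-box was in 7.15% of all windows and in those of Cplx3 and Sv2b. A match describes these letters and is no evidence that a factor was bound.

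The calcium-binding synaptotagmins fell in 5 of 5 cases at 18 months and in 3 of 5 at 3 months. Syt1, the calcium sensor of fast synchronous release, ranged from 1331 to 2865 CPM (median 2111) after MCAO and from 3399 to 6315 CPM (median 3919) in controls at 18 months. In the 3-month animals it ranged from 1289 to 3056 CPM (median 2321) after MCAO and from 4032 to 4385 CPM (median 4317) in controls. The groups did not overlap at either age, and the log2 change was -0.99 ± 0.17 (SE) at 18 months and -0.93 ± 0.17 at 3 months (adjusted p = 2.9e-05 and 1.06e-04). Library A of MCAO at 3 months, with 1289 CPM, and library D of MCAO at 18 months, with 1331 CPM, were lowest, and library A of the 18-month controls was highest.

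Syt2 is the fast calcium sensor found at terminals of parvalbumin interneurons and in the hindbrain (chr1:134646677-134762593, plus strand, GRCm38). It had 13.4 to 45.0 CPM (median 17.8) after MCAO and 67.8 to 94.9 CPM (median 82.9) in controls at 18 months, and 27.8 to 52.2 CPM (median 40.6) after MCAO and 41.6 to 67.2 CPM (median 52.7) in controls at 3 months. The groups stood clear of each other at 18 months and overlapped at 3 months. The log2 change was -1.86 ± 0.22 at 18 months (adjusted p = 1.64e-07), the largest of the members, and -0.39 ± 0.22 at 3 months (adjusted p = 0.16). The controls themselves did not overlap, being higher at 18 than at 3 months by a log2 difference of 0.63 ± 0.22, which was not called with all 4 groups in the fit (adjusted p = 0.273) and was called with the control groups alone (0.63, adjusted p = 0.00722). Library B held the highest value after MCAO at 18 months, 45.0 CPM, and the other 5 had at most 27.5 CPM. Of 8 inhibitory neuron markers, 3 fell and none rose at each age. Their sums were 332 to 469 CPM after MCAO and 582 to 711 CPM in controls at 18 months, and 373 to 508 CPM after MCAO and 546 to 670 CPM in controls at 3 months. Pvalb, the parvalbumin gene on that list, is named here after its values were seen; it changed by -1.36 ± 0.22 at 18 months and -0.61 ± 0.22 at 3 months on the log2 scale (adjusted p = 1.28e-05 and 0.0277). The part of these cells in the fall of Syt2 was not tested.

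Syt3 and Syt5, high-affinity and secretory calcium sensors, had log2 changes of -0.92 ± 0.20 and -0.44 ± 0.11 at 18 months. At 3 months Syt5 fell (-0.35 ± 0.11) and Syt3 was not called (-0.39 ± 0.20, adjusted p = 0.128). Syt7, the slow high-affinity sensor of asynchronous release and facilitation, changed by -0.40 ± 0.13 at 18 months and -0.48 ± 0.13 at 3 months, with overlapping groups at both ages. Its highest value after MCAO at 3 months was 810 CPM in library A, where Syt1 was lowest, and the other 5 libraries had 515 to 596 CPM. In library A of the 18-month controls the same 2 genes stood the other way round, with Syt1 highest at 6315 CPM and Syt7 lowest at 503 CPM.

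Of the other synaptotagmins 4 of 6 fell at each age. Syt4, an activity-regulated synaptotagmin of dense-core vesicles, had 269 to 304 CPM after MCAO and 346 to 466 CPM in controls at 18 months (log2 change -0.52 ± 0.08), and 277 to 363 CPM after MCAO and 397 to 481 CPM in controls at 3 months (-0.47 ± 0.08). Its groups did not overlap, and neither did those of Syt13 and Syt16, which lack calcium-binding residues. Syt13 changed by -0.80 ± 0.10 at 18 months and -0.61 ± 0.10 at 3 months, and Syt16 by -0.71 ± 0.15 and -0.83 ± 0.15. Syt11, a relative of Syt4 that acts in membrane retrieval, fell at 3 months (-0.37 ± 0.10, or -0.23 with adjusted p = 0.0452 without MCAO libraries A and C) and missed the threshold at 18 months (-0.25 ± 0.10, adjusted p = 0.0503). Syt12 fell at 18 months (-0.47 ± 0.16, adjusted p = 0.0188) and not at 3 months (-0.13 ± 0.16). Syt17, also known as B/K protein, was not called at either age, at 0.24 ± 0.19 at 18 months and 0.06 ± 0.19 at 3 months (adjusted p = 0.336 and 0.844).

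All 4 SNARE genes fell at both ages. Snap25, the plasma membrane SNARE cleaved by botulinum toxin A, had 807 to 1194 CPM (median 1000) after MCAO and 1668 to 2383 CPM (median 2031) in controls at 18 months, a log2 change of -1.03 ± 0.19. At 3 months it had 539 to 1645 CPM (median 1170) after MCAO and 1601 to 2146 CPM (median 1855) in controls, a log2 change of -0.79 ± 0.18. Libraries A and C, with 539 and 625 CPM, were far below the other 4 of MCAO at 3 months, which had at least 1049 CPM, and without A and C the 3-month change was -0.49 (adjusted p = 0.00238). Stx1a, syntaxin of the plasma membrane, changed by -1.03 ± 0.17 at 18 months and -0.49 ± 0.17 at 3 months (adjusted p = 1.75e-05 and 0.0244). Its lowest value was in library D at each age, at 33.8 CPM at 18 months and 55.1 CPM at 3 months. The 3-month call was lost without library D of MCAO (-0.36, adjusted p = 0.0547), and without library A or B of the controls (-0.45 and -0.46, adjusted p = 0.0518 and 0.0502).

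The paired vesicle SNAREs differed in size of change. Vamp1, synaptobrevin 1, which is the form of many fast-spiking and long-range neurons, had 39.9 to 107 CPM (median 50.8) after MCAO and 144 to 193 CPM (median 179) in controls at 18 months. In 3-month animals Vamp1 had 45.9 to 105 CPM (median 79.7) after MCAO and 125 to 183 CPM (median 141) in controls. The groups did not overlap, and the log2 change was -1.61 ± 0.19 at 18 months and -0.87 ± 0.19 at 3 months (adjusted p = 1.64e-07 and 7.81e-04). As for Syt2, library B held the highest value after MCAO at 18 months, 107 CPM, and the other 5 had 39.9 to 53.1 CPM. Vamp2, the main synaptobrevin of the forebrain, changed by -0.51 ± 0.14 at 18 months and -0.48 ± 0.14 at 3 months, with overlapping groups; without library D of MCAO at 18 months, its lowest, the 18-month change was -0.38 (adjusted p = 0.00901). The log2 ratio of Vamp1 to Vamp2 within a library, which no scaling alters, averaged -3.10 ± 0.52 after MCAO and -1.95 ± 0.28 in controls at 18 months (SD, n = 6). The 3-month ratio averaged -2.95 ± 0.43 after MCAO and -2.53 ± 0.18 in controls, and the groups overlapped there.

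Of the complexins, Cplx1 and Cplx2 fell at both ages and Cplx3 at neither. Cplx1 had 123 to 259 CPM (median 197) after MCAO and 345 to 514 CPM (median 445) in controls at 18 months, and 217 to 342 CPM (median 326) after MCAO and 368 to 466 CPM (median 407) in controls at 3 months. No library overlapped at either age, and the log2 change was -1.18 ± 0.14 at 18 months and -0.45 ± 0.14 at 3 months (adjusted p = 8.17e-08 and 0.0106). Cplx2, the form of excitatory cortical terminals, changed by -0.70 ± 0.10 at 18 months and -0.38 ± 0.10 at 3 months. Cplx3, known from ribbon synapses of the retina and from subplate-derived neurons of deep cortex, had 22.9 to 32.8 CPM after MCAO and 22.8 to 33.6 CPM in controls at 18 months. The 3-month levels were 27.6 to 38.9 CPM after MCAO and 23.3 to 43.3 CPM in controls, so its groups covered nearly the same range at each age (log2 change -0.13 ± 0.14 and -0.01 ± 0.13).

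The SV2 proteins, transporter-like glycoproteins of the vesicle, fell in 3 of 3 cases at 18 months and in 1 of 3 at 3 months. Sv2a, the binding site of levetiracetam, had 345 to 540 CPM after MCAO and 592 to 780 CPM in controls at 18 months, without overlap (log2 change -0.61 ± 0.10). The 3-month levels were 464 to 629 CPM after MCAO and 620 to 742 CPM in controls (-0.26 ± 0.10, adjusted p = 0.0469). Sv2b and Sv2c changed by -0.50 ± 0.13 and -0.67 ± 0.19 at 18 months, against -0.01 ± 0.13 and -0.04 ± 0.19 at 3 months. Library A of the 18-month controls held the highest Sv2c value, 66.0 CPM, and the lowest Sv2b value, 453 CPM, of its group.

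The synapsins tether vesicles in the reserve pool, and 2 of 3 fell at each age. Syn1 had 40.5 to 136 CPM (median 113) after MCAO and 165 to 202 CPM (median 174) in controls at 18 months, and 133 to 166 CPM (median 147) after MCAO and 191 to 231 CPM (median 218) in controls at 3 months. The groups did not overlap, and the log2 change was -0.76 ± 0.16 at 18 months and -0.56 ± 0.16 at 3 months (adjusted p = 2.88e-04 and 0.00678). Library D of MCAO at 18 months, at 40.5 CPM, was far below the other 5, which had at least 103 CPM. It was also lowest for Syn2, with 236 CPM against at least 395 CPM in the other 5. Syn2 changed by -0.36 ± 0.12 at 18 months and -0.33 ± 0.12 at 3 months (adjusted p = 0.0193 and 0.0367). Without library D the 18-month changes were -0.60 for Syn1 and -0.24 for Syn2, and both remained called (Syn2 with adjusted p = 0.0389). Syn3 was not called at 18 months (-0.31 ± 0.28) or 3 months (0.08 ± 0.26), on 1.60 to 7.48 CPM over all libraries.

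Each synapsin gene holds a gene for a metalloproteinase inhibitor on its opposite strand, and all 3 of these rose at both ages. Timp1, within Syn1, shares none of its exon bases and averaged 37.6 ± 14.5 CPM after MCAO and 0.254 ± 0.355 CPM in controls at 18 months (SD, n = 6). Timp4 shares 90 exon bases with Syn2 and changed by 0.44 ± 0.15 at 18 months and 0.48 ± 0.15 at 3 months. Timp3 shares 1733 exon bases with Syn3 and changed by 0.46 ± 0.10 at 18 months and 0.54 ± 0.10 at 3 months. The strand setting of the counting is not given in the sources used here. If strand was ignored, reads from exon bases that a pair shares could not be told apart, which leaves Syn3 in particular uncertain.

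**Figure D3:**
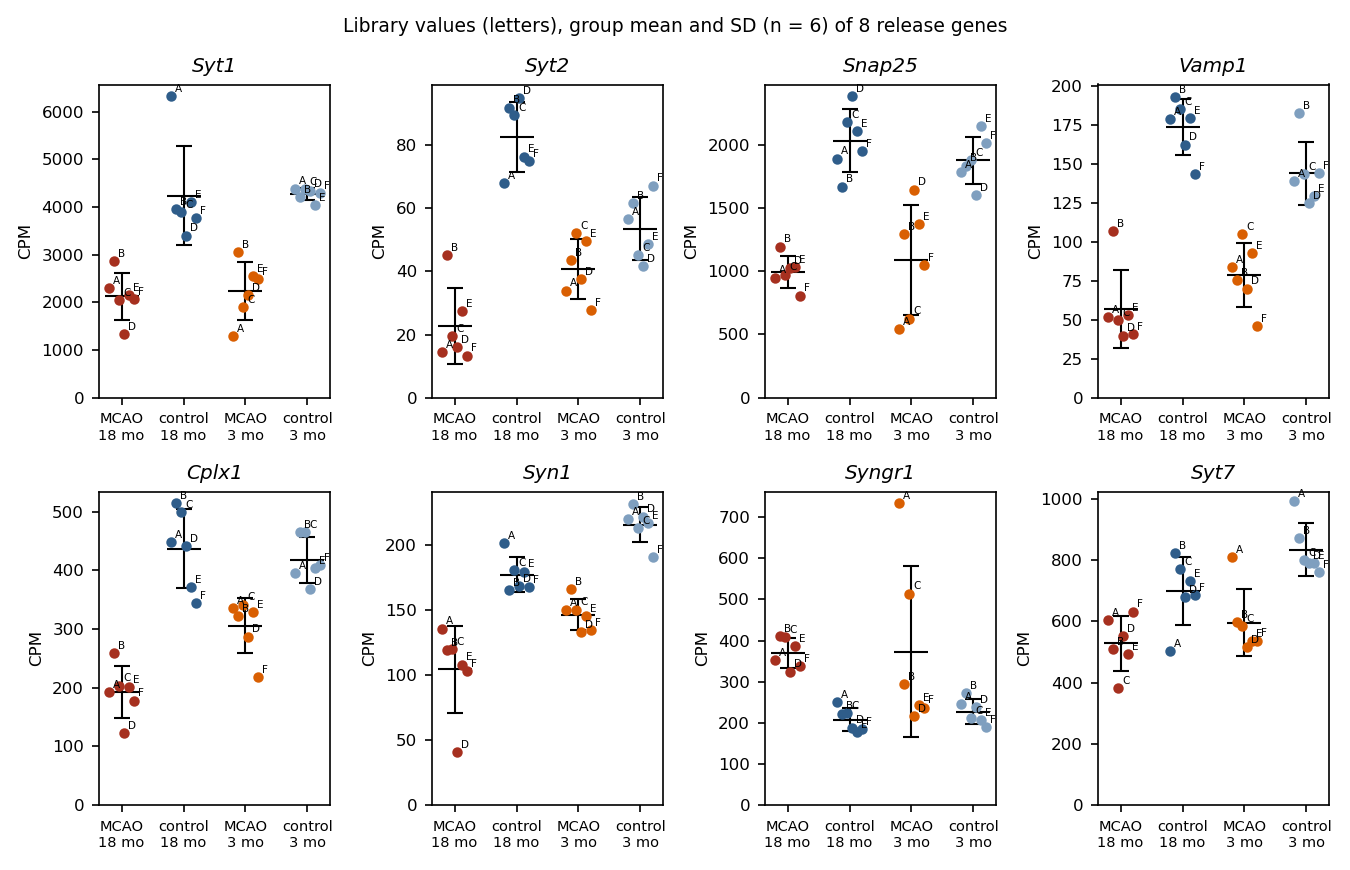
CPM of 8 genes in every library (points, with the library's letter) in the 4 groups; the bar and whiskers give the group mean and SD (n = 6). Syt2, Vamp1 and Cplx1 are lowest after MCAO at 18 months, Snap25 is split by libraries A and C at 3 months, and Syngr1 is higher in all 6 MCAO libraries at 18 months and mainly in A and C at 3 months.

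The physins and gyrins are vesicle proteins that cross the membrane 4 times, and they went both ways. Syp, synaptophysin, had 72.2 to 107 CPM after MCAO and 129 to 159 CPM in controls at 18 months, and 79.1 to 108 CPM after MCAO and 141 to 209 CPM in controls at 3 months. It fell at both ages without overlap, by a log2 change of -0.69 ± 0.11 at 18 months and -0.86 ± 0.11 at 3 months (adjusted p = 7.38e-06 and 4.51e-07). Synpr, synaptoporin, fell at 18 months (-0.37 ± 0.13, adjusted p = 0.0191) and was not called at 3 months (-0.15 ± 0.13). Syngr3, a synaptogyrin found in neurons, changed by -0.57 ± 0.13 at 18 months and -0.41 ± 0.13 at 3 months. Without MCAO libraries A and C the 3-month change of Syngr3 was -0.24 and not called (adjusted p = 0.11).

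Syngr1, synaptogyrin 1, was the only member that rose (chr15:80091334-80119501, plus strand, GRCm38). It had 325 to 411 CPM (median 369) after MCAO and 177 to 250 CPM (median 206) in controls at 18 months, and 216 to 734 CPM (median 269) after MCAO and 189 to 273 CPM (median 225) in controls at 3 months. The groups did not overlap at 18 months, and at 3 months 3 MCAO libraries, D, E and F, lay within the range of the controls. The log2 change was 0.83 ± 0.22 at 18 months and 0.72 ± 0.22 at 3 months (adjusted p = 0.00254 and 0.0104). At 3 months library A had 734 CPM and library C 514.5 CPM, and the other 4 had at most 294 CPM. Without library A the 3-month change was 0.41 (adjusted p = 0.0502), and without A and C it was 0.12 (adjusted p = 0.44). The microglial, monocyte and excitatory sums of A and C were also the highest of that group. The part of those cells in the level of Syngr1 was not tested.

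Rab3 and the active zone genes fell in 6 of 7 cases at each age. Rab3a, the main GTPase of synaptic vesicles, had 300 to 603 CPM (median 463) after MCAO and 720 to 1026 CPM (median 908) in controls at 18 months, and 537 to 744 CPM (median 615) after MCAO and 867 to 975 CPM (median 924) in controls at 3 months. The log2 change was -0.99 ± 0.12 at 18 months and -0.56 ± 0.12 at 3 months, with no overlap at either age. Rab3c, a close relative, fell at 3 months (-0.48 ± 0.15) and missed the threshold at 18 months (-0.34 ± 0.15, adjusted p = 0.0716). Rims1, a scaffold that links vesicles to calcium channels, had 115 to 173 CPM after MCAO and 245 to 305 CPM in controls at 18 months, and 181 to 256 CPM after MCAO and 260 to 309 CPM in controls at 3 months. Its groups did not overlap, and its log2 change was -0.93 ± 0.10 at 18 months and -0.38 ± 0.10 at 3 months (adjusted p = 1.75e-08 and 0.00329). Rims2 changed by -0.94 ± 0.14 at 18 months and was not called at 3 months (-0.32 ± 0.14, adjusted p = 0.074).

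The large scaffold genes Bsn (bassoon) and Pclo (piccolo) both fell at each age, Bsn by a log2 change of -0.69 ± 0.12 at 18 months and -0.30 ± 0.11 at 3 months, and Pclo by -0.46 ± 0.09 and -0.41 ± 0.09. Unc13a, the priming factor Munc13-1, had 100.1 to 158 CPM after MCAO and 178 to 237 CPM in controls at 18 months, and 85.5 to 172 CPM after MCAO and 192 to 255 CPM in controls at 3 months. It fell at both ages without overlap, with log2 changes of -0.76 ± 0.14 at 18 months and -0.76 ± 0.14 at 3 months (difference 0.01 ± 0.20) and libraries A and C lowest at 3 months. Unc13a shares 495 exon bases with Colgalt1 on the opposite strand, and reads from those bases could not be told apart if strand was ignored.

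The vesicular glutamate transporters fill vesicles with glutamate, Slc17a7 (VGLUT1) in cortical neurons and Slc17a6 (VGLUT2) in thalamic and subcortical ones. Slc17a7 had 615 to 1065 CPM (median 987) after MCAO and 1090 to 1649 CPM (median 1282) in controls at 18 months, without overlap (log2 change -0.54 ± 0.15, adjusted p = 0.00395). At 3 months it had 998 to 2093 CPM (median 1270) after MCAO and 1400 to 1869 CPM (median 1633) in controls, and was not called (-0.23 ± 0.15, adjusted p = 0.246). Library A held the highest value, 2093 CPM, and without it the 3-month change was -0.38 and called (adjusted p = 0.0244), and without A and C it was -0.47 (adjusted p = 0.00698). Slc17a6 had 7.72 to 17.0 CPM after MCAO and 24.8 to 38.4 CPM in controls at 18 months, and 14.6 to 30.1 CPM after MCAO and 21.0 to 43.5 CPM in controls at 3 months. Its log2 change was -1.23 ± 0.19 at 18 months and -0.59 ± 0.19 at 3 months (adjusted p = 6.38e-06 and 0.0134). The 3-month call on Slc17a6 was lost without MCAO libraries A and C (-0.45, adjusted p = 0.0759), under total-count scaling (-0.45, adjusted p = 0.0719) and with the groups of that age alone (-0.54, adjusted p = 0.0547). Of 5 thalamic markers, 5 rose at 18 months and 3 at 3 months, with sums of 113 to 152 CPM after MCAO and 51.8 to 63.7 CPM in controls at 18 months, and 80.0 to 99.9 CPM after MCAO and 49.1 to 60.8 CPM in controls at 3 months; their part in the level of Slc17a6 was not tested.

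Several calls lay close to the threshold and changed with 1 library. At 3 months the call on Sv2a was lost in 15 of 24 such fits (log2 change -0.28 to -0.22, adjusted p = 0.051 to 0.104), on Bsn in 8 (-0.31 to -0.26) and on Syn2 in 6 (-0.34 to -0.28). At 18 months the call on Syn2 was lost without control library A (-0.30), on Syt12 without control library E or MCAO library F (-0.39 and -0.40) and on Synpr without control library E or F (-0.30 and -0.31). Syt11 became a call at 18 months in 7 of 24 fits, the lowest adjusted p being 0.0139. Rab3c became one without control library A or MCAO libraries A or F (-0.42, -0.40 and -0.42), and Rims2 at 3 months without MCAO library E of that age or library C of MCAO at 18 months (-0.40 and -0.32).

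Scaling each library to equal mean log2 levels of the 16 neuronal markers asks how the members moved relative to those markers. On this scale the median of all tested genes shifted to 0.61 at 18 months and 0.37 at 3 months, and that of the members to -0.03 and 0.03. At 18 months 8 of 37 members were lower and 4 higher, where 1.53% of tested genes were lower and 65.6% higher. At 3 months 5 were lower and 4 higher, where 1.37% were lower and 45.9% higher. The remaining 25 members at 18 months and 28 at 3 months were not called relative to the markers.

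Lower than the neuronal markers at 18 months were Syt2 (log2 change -1.25 ± 0.20), Vamp1 (-1.004 ± 0.17), Slc17a6 (-0.62 ± 0.19), Cplx1 (-0.56 ± 0.12), Stx1a (-0.42 ± 0.15), Syt1 (-0.40 ± 0.16), Rab3a (-0.38 ± 0.12) and Rims1 (-0.29 ± 0.10). At 3 months they were Syt1 (-0.53 ± 0.16), Vamp1 (-0.44 ± 0.17), Syp (-0.44 ± 0.12), Syt16 (-0.43 ± 0.17) and Unc13a (-0.355 ± 0.132). Syt1 and Vamp1 were thus lower at both ages. Higher at both ages were Syngr1 (1.47 ± 0.23 at 18 months and 1.16 ± 0.23 at 3 months), Syt17 (0.87 ± 0.19 and 0.48 ± 0.19) and Cplx3 (0.49 ± 0.15 and 0.40 ± 0.15), joined by Syt11 at 18 months (0.38 ± 0.12) and Sv2b at 3 months (0.42 ± 0.12). With 65.6% of all tested genes higher at 18 months and 45.9% at 3 months, such a call by itself sets no member apart. Cplx3 and Syt11 lay below the median of all tested genes at 18 months.

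The 3-month calls of this kind depended on libraries and markers. Without libraries A and C, Vamp1 and Syp were lower (-0.63 and -0.51) and Syngr1 and Syt17 higher (0.51 and 0.51), and Syt1, Syt16, Unc13a, Cplx3 and Sv2b were not called. With 6 excitatory cortical markers in place of the 16, no member was lower and 20 were higher at 3 months, and 4 were lower and 6 higher at 18 months; the 4 lower at 18 months were Syt2, Vamp1, Cplx1 and Slc17a6 (-1.19, -0.95, -0.49 and -0.54). With the counts of the 16 markers summed, 11 members were lower and 3 higher at 18 months, Snap25, Syt13 and Rims2 being added to the lower ones (-0.53, -0.32 and -0.44) and Syt11 no longer higher. The calls at both ages thus depended on which neuronal markers were used and how they were combined. The shares of all tested genes called with the 6 markers or with summed counts are not given here. By themselves the counts on those scales say nothing about the members. With summed counts Syt17 and Cplx3 were not called at 3 months (0.43 for Syt17).

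**Figure D4:**
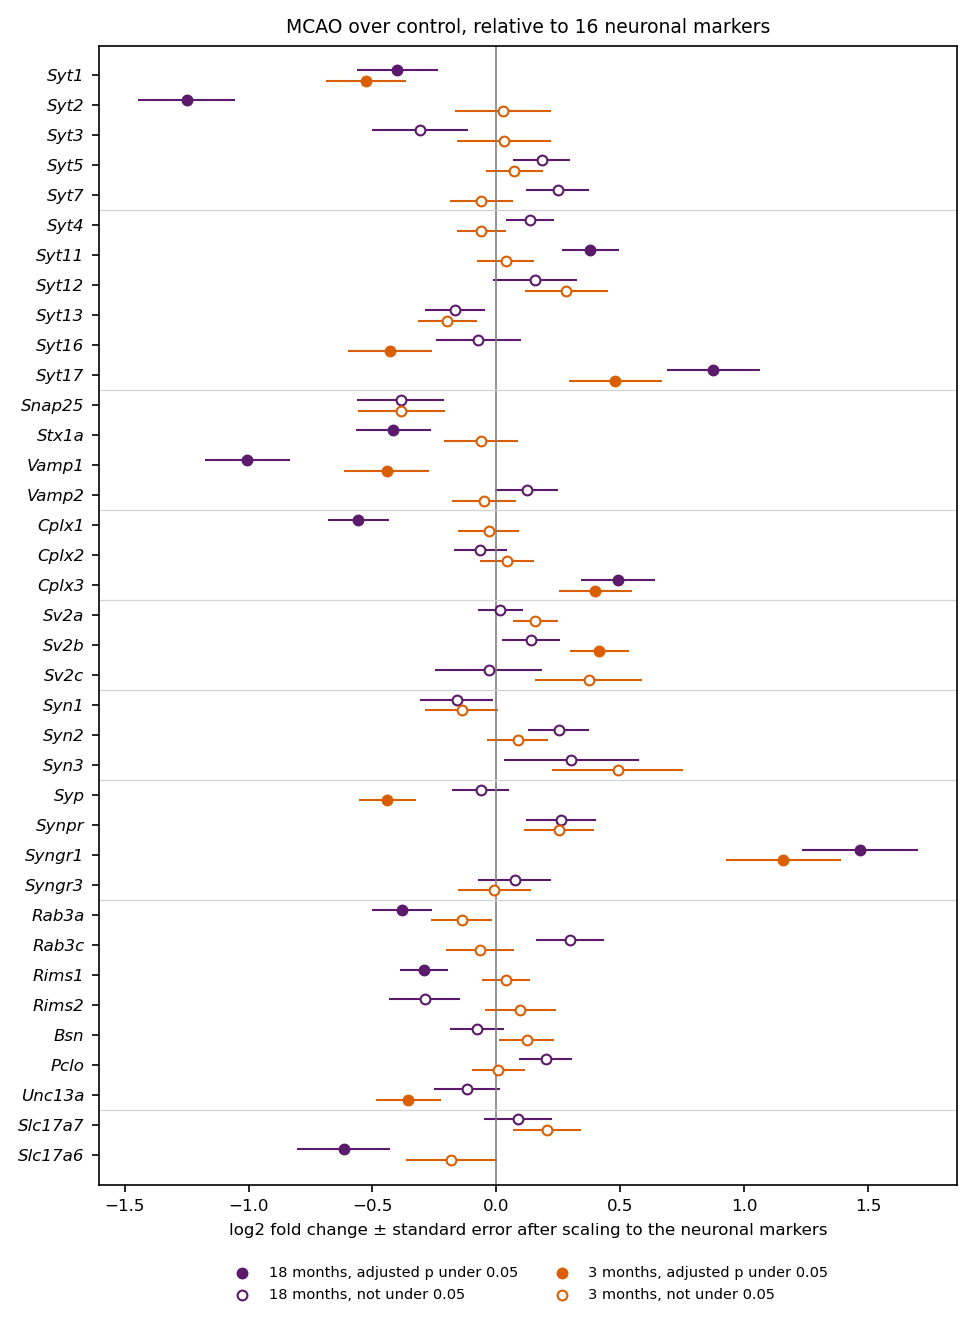
Log2 fold changes of MCAO over control with standard errors after each library was scaled to the same mean log2 level of 16 neuronal markers, at 18 months (purple, upper) and 3 months (orange, lower); filled points have an adjusted p under 0.05. Most members lie near 0, Syt2, Vamp1, Slc17a6 and Cplx1 lie left of it at 18 months, and Syngr1, Syt17 and Cplx3 lie right of it at both ages.

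The groups of 18 and 3 months were then compared directly. Between controls no member was called by edgeR, DESeq2 or limma-voom with all 4 groups in the fit, where edgeR called 0.603% of tested genes in either direction. On the control groups alone edgeR called Syt2, as given above, where it called 113 of 13317 tested genes lower and 113 higher. Unadjusted p was under 0.05 for 3 of 37 members, where it was for 9.09% of tested genes: Syt2 (0.63 ± 0.22), Syp (-0.30 ± 0.11) and Pclo (-0.23 ± 0.09). After MCAO, 12 of 37 members were lower at 18 than at 3 months, where 4.51% of tested genes were. They were Syt2 (-0.84 ± 0.22), Cplx1 (-0.67 ± 0.14), Stx1a (-0.63 ± 0.17), Slc17a6 (-0.63 ± 0.19), Slc17a7 (-0.58 ± 0.15), Rims1 (-0.55 ± 0.10), Rims2 (-0.52 ± 0.14), Syn1 (-0.49 ± 0.16), Rab3a (-0.48 ± 0.12), Sv2b (-0.45 ± 0.13), Cplx2 (-0.44 ± 0.10) and Pclo (-0.28 ± 0.09). Rims1 was the member whose groups did not overlap, at 115 to 173 CPM at 18 months and 181 to 256 CPM at 3 months. The share of all tested genes without overlap in this comparison is not given here, so this cannot be set against it. The neuronal markers moved in the same comparison, 6 of 16 being lower at 18 months (median -0.29, that of the members -0.29). So did markers of other cells, with 4 of 4 tested erythrocyte markers (median 3.25), 3 of 6 monocyte and macrophage markers and 4 of 8 oligodendrocyte markers higher and 2 of 6 striatal markers lower (median -0.97). Their part in the members' change was not tested. The count was 4 when only these 2 groups entered the fit and 0 when libraries were scaled by spiked-in RNA, where 225 and 25 of all tested genes were lower, beside 658 with all groups and the main scaling. Without MCAO libraries A and C of the 3-month group the calls on Stx1a (-0.46), Slc17a7 (-0.34), Sv2b (-0.32) and Syn1 (-0.47) were lost (adjusted p = 0.078 to 0.104), Snap25 (-0.43), Syngr3 (-0.43) and Unc13a (-0.34) were called lower, and Syngr1 was called higher (0.58). Calls on Syn1, Pclo, Sv2b and Slc17a6 were lost in 18, 7, 5 and 5 of the 24 fits that left out 1 library. The call on Rims2 was lost without library E of MCAO at 3 months (-0.43, adjusted p = 0.0518). Other members became calls when 1 library was left out: Syt3 in 5 fits (-0.71 to -0.61), Sv2a in 4 (-0.35 to -0.30), Vamp1 without MCAO library B at 18 months or F at 3 months (-0.74 and -0.58), Cplx3 without that library B (-0.44) and Bsn without MCAO library A at 18 months (-0.37).

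**Figure D5:**
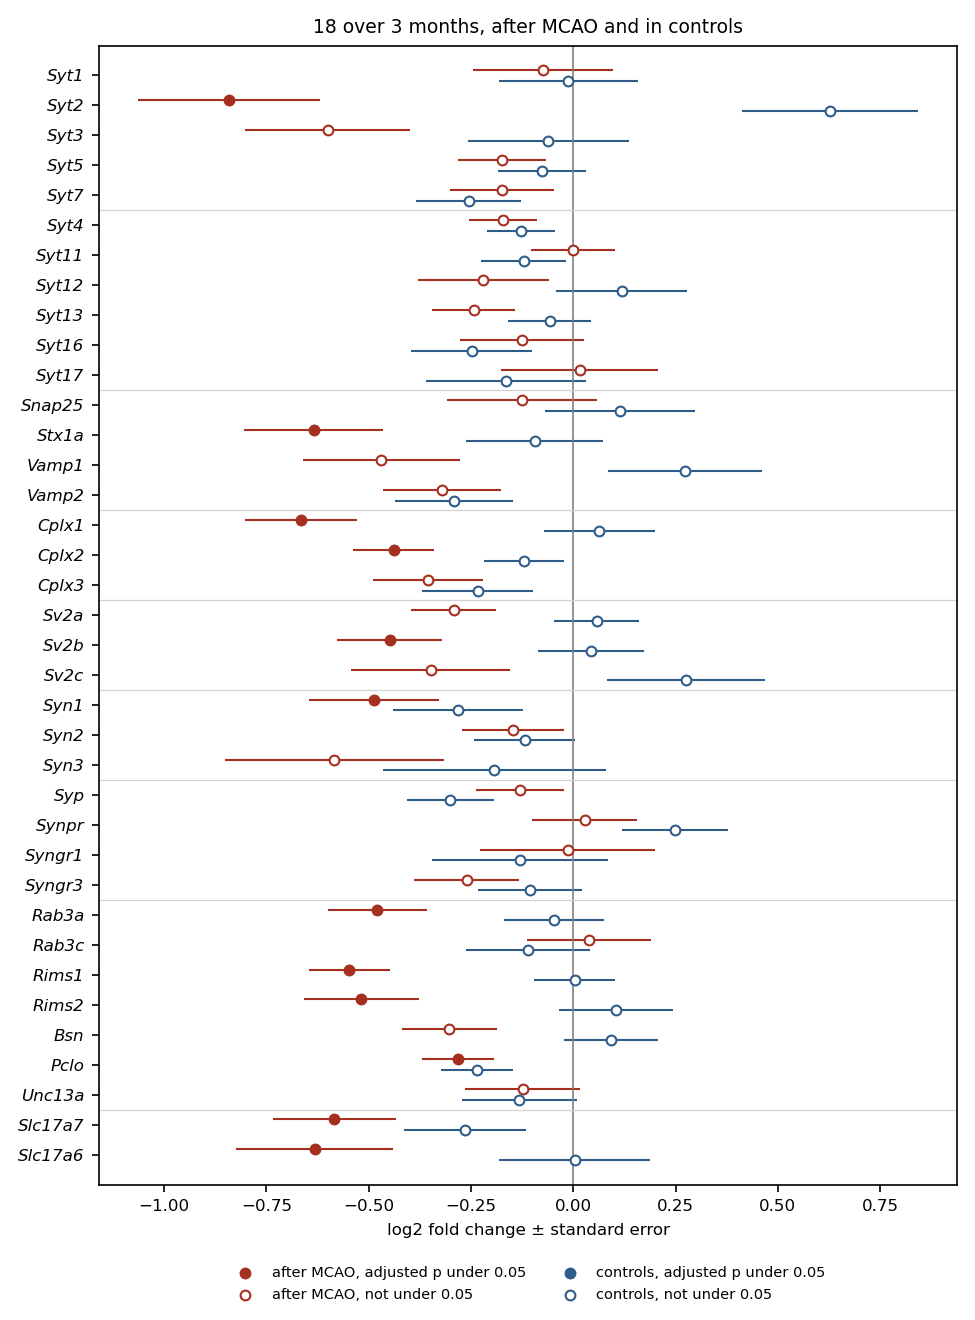
Log2 fold changes of 18 over 3 months with standard errors, after MCAO (red, upper) and in controls (blue, lower); filled points have an adjusted p under 0.05. After MCAO 12 genes are filled, all left of 0, and no gene is filled in the controls.

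The effect of MCAO itself, 18 minus 3 months, differed for no member in edgeR's test, where 0.0822% of tested genes were called in either direction. The estimate was negative for 29 of 37 members, with a median of -0.22 beside 0.01 over all tested genes, and the unadjusted p was under 0.05 for 13, where it was for 10.7% of tested genes. Syt2 came closest, with a difference of -1.47 ± 0.31 (adjusted p = 0.0568). It was called by DESeq2, which called 3 members (Syt2, Cplx1 and Rims1), and by limma-voom, which called 1, at adjusted p = 0.00225 and 0.0461. Over all genes DESeq2 called 62 lower and 56 higher in this comparison, and limma-voom 7 lower and 3 higher. Syt2 was also called by edgeR without library A or F of MCAO at 3 months, library B of MCAO at 18 months or library A of the 18-month controls (-1.52, -1.56, -1.77 and -1.54). Cplx1 differed by -0.73 ± 0.19 (adjusted p = 0.12) and was called without library B of MCAO at 18 months or F of MCAO at 3 months (-0.83 and -0.81). Vamp1 differed by -0.74 ± 0.27 (adjusted p = 0.284) and was called without library B of MCAO at 18 months (-1.01). Relative to the 16 neuronal markers the estimates of the members were about as often positive as negative, up to 0.39 for Syt17. With the 6 excitatory markers in their place most estimates were negative. The difference for Syt2 relative to the 16 markers was -1.28 ± 0.27 and was called by edgeR (adjusted p = 0.0307), where 0.712% of tested genes were. This call was lost with summed marker counts (-1.36, adjusted p = 0.06). It held in 15 of 24 fits that left out a library, with estimates from -1.51 to -1.17.

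The release pathway holds further genes, of which 48 that are no members were listed in 5 groups and 46 were tested. At 18 months 35 fell and 2 rose (median log2 change -0.55), where 21.5% of all tested genes fell and 23.7% rose. At 3 months 21 fell and 1 rose (median -0.34), where 17.3% of all tested genes fell and 20.1% rose. By group, 9 of 12 SNARE chaperones and relatives, 10 of 15 priming and active zone genes, 4 of 6 further synaptotagmins and vesicle proteins, 6 of 6 vesicle endocytosis genes and 6 of 7 vesicle filling genes fell at 18 months. At 3 months 6, 5, 2, 4 and 4 of them fell in that order. The members fell in 31 of 37 cases at 18 months and 25 of 37 at 3 months.

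Among the falls of smallest p at 18 months were those of Cadps, a priming factor of dense-core vesicles (-0.89 ± 0.09), and Rims3 of the active zone (-1.38 ± 0.16). At 3 months they included Slc32a1, the vesicular GABA transporter (-0.88 ± 0.12), and Rph3a, a Rab3 effector (-0.62 ± 0.11). Cadps averaged 106 ± 11.6 CPM after MCAO and 197 ± 23.5 CPM in controls at 18 months, and 131 ± 15.4 CPM after MCAO and 179.6 ± 9.30 CPM in controls at 3 months (SD, n = 6). The genes that rose were Snap29, a SNARE of general membrane traffic (0.53 ± 0.15), and Doc2b, a calcium sensor of spontaneous release (0.61 ± 0.25), at 18 months, and Syt6 (0.61 ± 0.24) at 3 months, each with overlapping groups.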

How the data were processed

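Messenger RNA 3′ ends were sequenced from parietal cortex of 24 mice, with libraries from 400 ng of total RNA, per the labels' protocols. The deposited values used are counts per gene; the submitters' processing notes name Trimmomatic, HTSeq, DESeq2 and GRCm38. The sources used here give no counting settings, strand included, and the authors' normalised values were not used. Gene totals were 3299128 to 13082872 reads per library. Reads in no gene (25.7 to 34.5%), ambiguous reads and spiked-in ERCC RNA (4.43 to 10.5%) stayed out of library sizes.

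Symbols came from GENCODE M21 and the supplied name tables. In R 4.3.3, edgeR 4.0.16 fitted 4 group means to all 24 libraries (TMM scaling, filterByExpr with a minimum count of 10, robust quasi-likelihood test, Benjamini-Hochberg adjustment over 14599 genes, threshold 0.05). A further fit scaled libraries to 16 neuronal markers. Fits were tested on simulated data. DESeq2 1.42.0, limma 3.58.1, other scalings, filters, left-out libraries and a replicate block were alternatives. The letters are biological replicates, per the labels; errors cover the spread between them.

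The members, gene lists and tests were chosen with earlier results of these data known, so lists support nothing by themselves. All 37 members are named; of further pathway genes, the 3 of smallest p in each direction per MCAO comparison, of which 1 is not reported here; marker genes appear where a result turns on them.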

Additional observations from a re-analysis of the deposited data

Results flagged for a closer look

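Over 148 sets of 6 libraries (37 genes in 4 groups), 11 had a highest or lowest value whose gap to its neighbour exceeded Dixon's 95% critical ratio; chance gives about 1 in 20. Library D of MCAO at 18 months was lowest for Vamp2 (255.9 CPM, others 473 to 537), Syn1 (40.5 CPM, others 103 to 136) and Syn2 (236.0 CPM, others 395 to 472). Library B of that group was highest for Vamp1 (106.8 CPM, others 39.9 to 53.1) and Cplx3 (32.8 CPM, others 22.9 to 25.1). Library A of the 18-month controls was highest for Syt1 (6315 CPM, others 3399 to 4093), Syt11 (1001 CPM, others 756 to 801) and Sv2c (66.0 CPM, others 34.7 to 42.0). In MCAO at 3 months library A was highest for Syt7 (809.9 CPM, others 515 to 596) and library B lowest for Syt5 (45.6 CPM, others 52.7 to 55.8). Library B of the 3-month controls was highest for Vamp1 (182.6 CPM, others 125 to 144).

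Relative to neuronal markers, the effect of MCAO on Syt2 differed between the ages by -1.28 on the log2 scale, 18 minus 3 months (edgeR, adjusted p = 0.0307). The call was lost with summed marker counts (-1.36, adjusted p = 0.06) and held in 15 of 24 fits that left out 1 library. On the main scale edgeR did not call this difference (adjusted p = 0.0568).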

How the results depend on the processing

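Falls at 18 months numbered 27 to 33 under every alternative scaling, filter, test and left-out library. At 3 months 25 falls became 14 under total-count scaling and 33 under ERCC scaling, and the 1 rise, Syngr1, became 0 under ERCC scaling and without libraries A and C of MCAO (0 to 1 leaving out 1 library). Over all tested genes the 2521 falls at 3 months became 1203 under total-count scaling and 6178 under ERCC scaling. ERCC scaling moved the median of all genes to -0.32 at 18 months and -0.49 at 3 months, and that of the members to -0.96 and -0.86. After MCAO, 12 members lower at 18 than at 3 months became 0 under ERCC scaling and 4 with the 2 groups alone (8 to 14 leaving out 1 library). Without A and C 1 member was higher at 18 months, Syngr1, whose change turned to 0.58. Between controls 1 member, Syt2, was higher with the 2 groups alone, where 113 of 13317 tested genes were higher. The age difference of the MCAO effect, 0 lower calls, became 3 in DESeq2, 1 in limma-voom, 1 with the replicate block and 1 without A and C, which also gave 1 higher call (0 to 3 lower leaving out 1 library). Over all genes the 6 lower calls became 62, 7, 9 and 44 in that order, and without A and C 91 genes were called higher.

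Relative to neuronal markers at 3 months, 5 lower and 4 higher became 2 and 2 without A and C (chosen after seeing the data), 0 and 20 with 6 excitatory markers, and summed marker counts gave 2 higher (3 to 6 lower and 2 to 4 higher leaving out 1 library). At 18 months 8 lower became 4 with excitatory markers and 11 with summed counts, and 4 higher became 4 to 7 leaving out 1 library. The age difference, 1 lower, became 0 with summed counts, 0 to 2 leaving out 1 library, and 1 higher without A and C. The shares of all tested genes called under these alternatives are not given here, and the cause of these changes was not tested. Replicate letters were not taken as pairs, since the labels do not say that letters pair animals. Deviations of same-letter libraries correlated at -0.296 to 0.307, with all pairs positive for E (0.0331 to 0.137) and F (0.0232 to 0.142). A library matched its own letter best in 20 of 72 cases, where chance gives about 1 in 6. With the replicate block 32 members fell at 18 months and 25 at 3 months, and 16 were lower at 18 than at 3 months after MCAO. Over all 14599 tested genes 3225, 2660 and 717 were lower in that order, beside 3143, 2521 and 658 without the block. Syn3, at 10 to 46 counts, is limited by depth.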
